A study of Rattus norvegicus with 4 samples.

Results

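Retinoid synthesis, binding and receptor genes were described here in rat testicular peritubular myoid cells, the contractile cells that wrap the seminiferous tubule. The members were 9 genes fixed by name, Aldh1a1, Aldh1a2, Rbp4, Crabp1, Crabp2, Rara, Rarb, Rxra and Cyp26b1, and were found as the non-control probes of the array that carry a member's symbol or an older symbol of it. They had 10 probes, of 41012 probes for 35663 genes and unnamed transcripts on the array, and Rarb alone had more than 1 probe. The series asked which genes testosterone induces in these cells.

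The cells came from testes of rats aged 40 days and were kept for 4 days in DMEM and Ham's F-12 medium with defined growth factors. Cells of the testosterone group (2 arrays) received 1e-07 M testosterone in pulses, and the control group (2 arrays) came from the same kind of culture. The labels name no vehicle, strain or genotype, and they print the treatment text on the control samples too, so that the titles alone separate the groups. Whether the replicates are separate animals or cultures is not stated, so the spread behind each p-value need not be one between animals. It includes differences by replicate number seen in both groups. Summed germ cell markers, for instance, were 0.668 and 6.23 on testosterone replicates 1 and 2, and 0.652 and 6.30 on control. In RNA from whole cultures, fewer cells of a type and less RNA per cell cannot be told apart.

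Retinol circulates bound to Rbp4, is oxidised to retinal by retinol dehydrogenases, and is turned into retinoic acid by the Aldh1a retinal dehydrogenases. Crabp1 and Crabp2 bind retinoic acid inside the cell, heterodimers of RAR and RXR receptors carry its signal to genes, and Cyp26 enzymes break it down. In the testis retinoic acid is required for spermatogonia to differentiate and enter meiosis, and Cyp26 enzymes of peritubular cells have been described as a barrier to retinoic acid from outside the tubule.

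Promoter windows of Rarb and Cyp26a1 are shown because they hold the direct repeat through which RAR and RXR are known to bind DNA. Rarb is a member, and Cyp26a1 is a close relative of Cyp26b1. The bases run 5′ to 3′ on the gene's strand from 250 before to 50 after the start (RefSeq, GRCr8), and capitals mark the repeat. The Rarb window is chr15:11336142-11336441 and the Cyp26a1 window is chr1:244883572-244883871, both on the plus strand.
Rarb: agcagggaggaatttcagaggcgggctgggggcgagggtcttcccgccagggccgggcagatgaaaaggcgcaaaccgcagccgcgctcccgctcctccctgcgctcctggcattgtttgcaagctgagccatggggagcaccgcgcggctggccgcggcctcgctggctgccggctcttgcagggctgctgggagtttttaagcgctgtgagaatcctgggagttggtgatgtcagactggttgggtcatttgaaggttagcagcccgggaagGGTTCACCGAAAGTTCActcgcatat
Cyp26a1: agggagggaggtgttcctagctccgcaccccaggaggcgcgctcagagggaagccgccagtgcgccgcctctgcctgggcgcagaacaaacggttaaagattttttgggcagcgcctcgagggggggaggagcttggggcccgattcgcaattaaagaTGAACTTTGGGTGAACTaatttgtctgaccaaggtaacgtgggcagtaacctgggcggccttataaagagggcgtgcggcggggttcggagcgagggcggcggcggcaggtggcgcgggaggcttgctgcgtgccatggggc

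The motif searched was any pair of 4 hexamers in 1 direction and 5 bases apart, on both strands. They were the receptors' consensus hexamer AGGTCA, the variant hexamer GGGTCA, the variant hexamer AGTTCA and the variant hexamer GGTTCA. It stood in 128 of 33469 promoters (0.382%), those of 1 of 9 members and of 1 of 32 other pathway genes with a promoter in the table among them. In Rarb the repeat was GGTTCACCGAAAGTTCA at bases 25 to 41 after the start, and in Cyp26a1 it was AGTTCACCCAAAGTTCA on the opposite strand, at bases -92 to -76. Rarb and Cyp26a1 are textbook targets of retinoic acid through such repeats, and the hexamer variants are known from genes of this kind, so both matches describe the sequences and nothing is read from their number. The same hexamers 2 bases apart stood in 57 promoters (0.17%) and 1 base apart in 78 (0.233%), and in 0 of the 9 members. Each spacing was counted on its own, so a promoter could be counted under several. The palindromic androgen response element, AGAACA followed after 3 bases by TGTTCT, stood in 5 promoters (0.0149%) and in 0 of the 9 members. A match describes letters in this window and is not a shown binding site, and 0 matches say only that these letters are not in it.

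The arrays were scanned on 1 slide, with 43379 non-control spots each, of which 63.5% to 68.2% were well above background by the scanner's flag. On control replicate 1, replicated spots had a median coefficient of variation of 9.52%, against 5.25% to 5.53% on the other arrays. That array also held 103 probes that read at least 3 log2 units below the other arrays, all in columns 57 to 85 of the slide, against 1 on testosterone replicate 1 and 0 on the others. Of the peritubular and smooth muscle markers, 9 of 11 with a probe were well above background on all 4 arrays, including Myl9, Des and Actg2, while Cnn1 was so on none, and Acta2 and Myh11 had no probe of that name. Markers of other cells were measured too, 10 of 15 Sertoli, 7 of 9 Leydig, 12 of 12 macrophage, 8 of 8 fibroblast, 5 of 12 germ, 4 of 10 endothelial and 3 of 5 mesothelial markers on all 4 arrays. Dmrt1 and Wt1 of the Sertoli list and Lhcgr of the Leydig list were well above background on none.

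Values of the members are log2 processed signals minus the array's 75th percentile, called levels, so 0 is the 75th percentile of that array. A level is read across arrays for 1 probe and not between genes, since each probe has its own response. Of the 9 members, 7 were well above background on all 4 arrays, which were Aldh1a1, Rbp4, Crabp2, Rara, Rarb, Rxra and Cyp26b1. Crabp1 was well above background on 1 array and Aldh1a2 on none. The 7 members measured on all arrays span the retinol carrier (Rbp4), synthesis (Aldh1a1), intracellular binding (Crabp2), the receptors (Rara, Rarb and Rxra) and breakdown (Cyp26b1). None of the member probes was saturated or an outlier spot on any array.

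**Figure D1:**
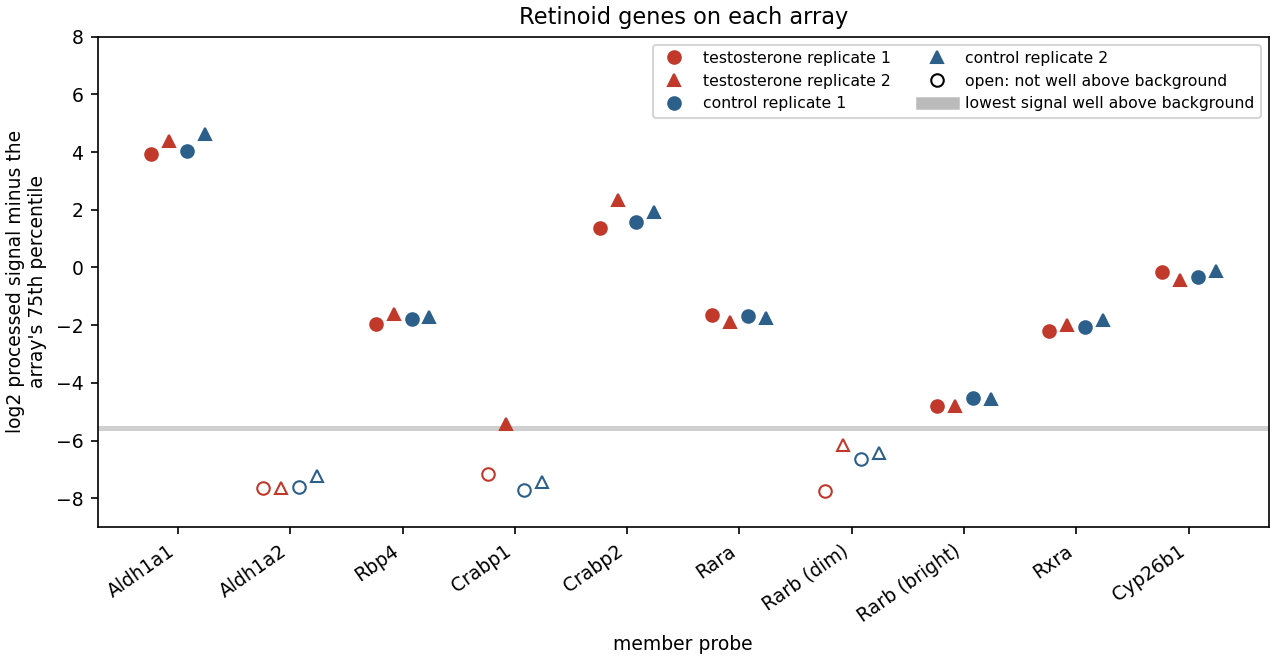
Level of each member probe on each array (log2 processed signal minus the array's 75th percentile), with testosterone in red, control in blue, circles for replicate 1 and triangles for replicate 2. Open symbols were not well above background, as on all arrays for Aldh1a2 and for the dim Rarb probe; the grey band spans the arrays' lowest signals well above background, -5.68 to -5.51.

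No member passed the test for testosterone against control. In limma with Benjamini-Hochberg adjustment over 22048 genes and unnamed transcripts, 0 of the 7 members tested were called at an adjusted p under 0.05, where 0% of all genes were called higher and 0% lower. At an unadjusted p under 0.05 limma gave 0 members, against 115 genes higher (0.522%) and 64 lower (0.29%). The lowest p among members was 0.222, for Rarb, and every adjusted p was 1.00. The smallest 2-sided p of an exact permutation test is 0.333 in this design, so no such test was used.

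Of the 7 members tested, 6 had a negative and 1 a positive difference, where 53.1% of all genes had a negative and 46.9% a positive one. Their median difference was -0.07 on the log2 scale, against -0.01 for all genes. For 6 of the 7 members, and for 20158 of all 22048 genes (91.4%), the wider gap between arrays of 1 group exceeded the difference between groups. Rarb was the exception. The 95% intervals lay within a 2-fold difference either way for 6 of the 7 members, and Crabp2 was the other one. A missed threshold does not show that the groups were alike, and these intervals give the sizes that the arrays leave possible.

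**Figure D2:**
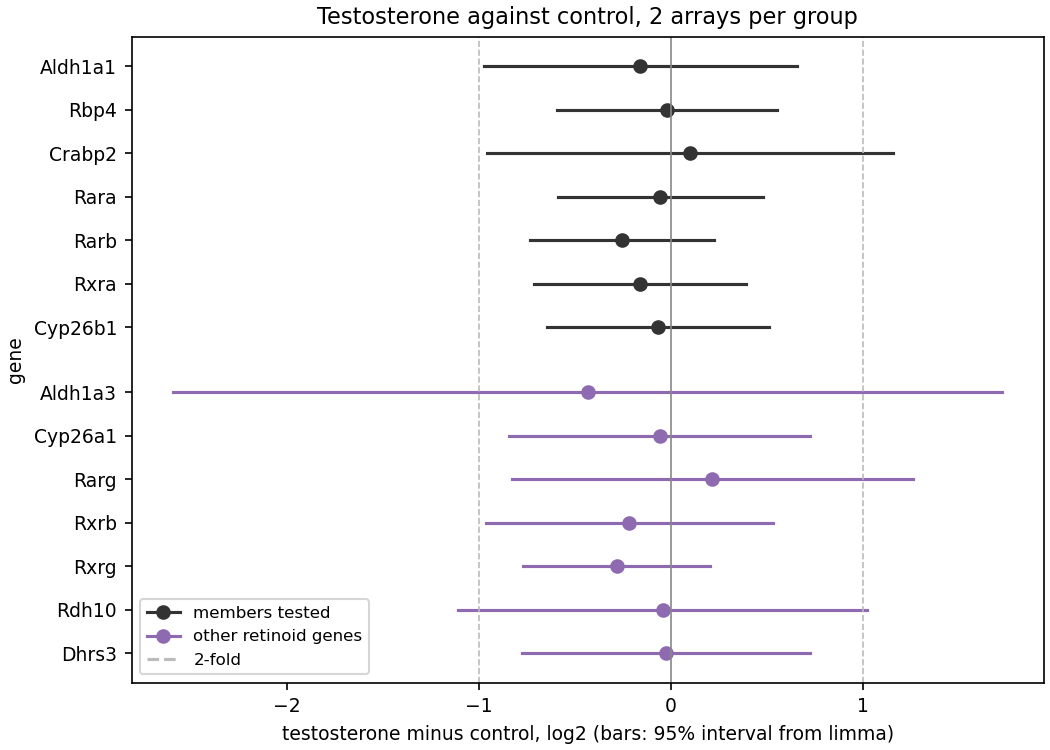
Testosterone minus control on the log2 scale for the 7 members tested (black) and for related genes (purple), with 95% intervals from limma over 2 arrays per group and dashed lines at a 2-fold difference. Every interval shown includes 0, and that of Aldh1a3 is the widest.

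Rbp4, the plasma carrier of retinol, was read by a probe on chromosome 1, 242443888 to 242443947 on the minus strand (rn4, as are all probe positions here). Testosterone arrays read -1.95 and -1.61, and control arrays -1.79 and -1.72. Both control arrays lay between the testosterone arrays. The means were -1.78 ± 0.24 and -1.76 ± 0.05 (SD, n = 2), a difference of -0.02 with a 95% interval from -0.60 to 0.55 in limma. It was 0.15 without testosterone replicate 1 and 0.01 without control replicate 2. Among the partners of Rbp4 and retinol was the receptor gene Stra6. It read -7.31 and -7.32 with testosterone and -7.33 and -7.42 in control, with 0 arrays well above background. Ttr, which carries Rbp4 in blood, and Lrat, which stores retinol as esters, were likewise below that mark on all 4 arrays.

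In the list of 10 uptake, transport and storage genes other than Rbp4, 8 had a probe, 3 were well above background on all 4 arrays and 4 on none, and 3 were tested. Those were Bco1, Lpl and Fabp5, and 0 were called. Bco1, which cleaves beta-carotene into retinal, differed by 0.52 (-0.54 to 1.58), with testosterone replicate 2 above the other arrays at -0.75. Its other probe was well above background on 1 array, and both are named through an accession. Lpl, a lipase that frees retinyl esters from lipoproteins, differed by -0.14 (-2.12 to 1.85). A further Lpl probe, also well above background on all 4 arrays, had means of -2.98 with testosterone and -3.05 in control, the opposite order. The Fabp5 probe was saturated on all 4 arrays, so its difference was not measured.

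Retinol is oxidised by short-chain and alcohol dehydrogenases. Of 17 such oxidoreductases 15 had a probe, and 9 were well above background on all 4 arrays. Of 10 tested, 2 had positive and 8 negative differences, beside 53.1% negative among all genes. Rdh10, the main retinol dehydrogenase of the embryo, read -1.72 and -2.58 with testosterone and -1.81 and -2.41 in control. Its difference was -0.04 (-1.11 to 1.02), and that of Dhrs3, which reduces retinal back to retinol, was -0.03 (-0.78 to 0.73). Among those measured on all 4 arrays the 4 largest differences were those of Rdh16 (-0.50, from -1.21 to 0.21), Dhrs4 (-0.34, from -1.01 to 0.33), Rdh11 (0.27, from -0.56 to 1.09) and Rdh14 (0.08, from -0.45 to 0.61). Both testosterone arrays of Rdh16 and of Dhrs4 lay below both control arrays, and neither gene passed the test. That is 2 of 10 beside 9.41% of all genes, and 0 of 10 lay apart the other way (5.91%). Rdh16, named through an accession, read -4.64 and -5.09 with testosterone and -4.18 and -4.55 in control. These levels were near the lowest signals well above background.

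Aldh1a1 and Aldh1a2 make retinoic acid from retinal, and Aldh1a1 was the measured member of this pair. The Aldh1a1 probe (chromosome 1, 223772858 to 223772917) read 3.95 and 4.39 with testosterone and 4.04 and 4.62 in control. In each group replicate 2 was the higher array, and the groups overlapped. The means were 4.17 ± 0.31 and 4.33 ± 0.41 (SD, n = 2), and the difference was -0.16 (-0.98 to 0.66), which is 0.895-fold (0.509 to 1.58). The gaps between arrays of a group, 0.44 with testosterone and 0.58 in control, exceeded it. The probe lay in column 59, within the columns where control replicate 1 had dropped probes, but none of the 399 probes within 10 rows and columns of it was dropped there. Without testosterone replicate 1 or control replicate 2 the difference turned positive, at 0.06 and 0.13.

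In the testis Aldh1a1 is known from Sertoli and Leydig cells, and Aldh1a2 from germ cells. Markers of both kinds of cell gave no single order of the arrays. Testosterone replicates 1 and 2 had mean levels of the Leydig list of 0.44 and 0.07, and control 0.67 and 0.07, lower on replicate 2, where Aldh1a1 was higher. The summed linear level of that list (in units of the 75th percentile), which its brightest probes carry, ran the other way, at 261 and 335 with testosterone and 279 and 298 in control. Of the markers read singly from that list, Star was higher on replicate 2 in both groups, and Insl3, Cyp11a1, Cyp17a1 and Hao2 were lower. They were picked from 9 with a probe after their values were seen. Star, at 5.62 and 6.31 with testosterone and 5.53 and 6.04 in control, is 1 gene that raises the sum. The rest of the list are not given singly, so what they add to the sum is not shown. Sertoli markers had mean levels of -2.50 and -1.98 with testosterone and -2.20 and -2.29 in control, and sums of 172 and 212 against 181 and 194. The part of these cells in the Aldh1a1 signal was not tested.

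The Aldh1a2 probe (chromosome 8, 75771061 to 75771120) read -7.63 and -7.64 with testosterone and -7.62 and -7.22 in control. Every array lay below the lowest signals well above background, so no difference is given. Germ cell markers differed by replicate number, with summed levels of 0.668 and 6.23 with testosterone and 0.652 and 6.30 in control. Aldh1a2 was not well above background on the arrays with the higher germ cell sums either. The related gene Aldh1a3, which also makes retinoic acid, was measured on all 4 arrays at -2.31 and -4.15 with testosterone and -2.08 and -3.51 in control. Replicate 1 was the higher array in both groups, opposite to Aldh1a1, and the difference of -0.43 had an interval from -2.59 to 1.73. Aldh1a7 differed by -0.10 (-1.25 to 1.05).

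Crabp2, which passes retinoic acid to the receptors in the nucleus, was read by a probe on chromosome 2, 180033998 to 180034057. Testosterone arrays read 1.37 and 2.36, and control arrays 1.59 and 1.94. The testosterone arrays held both the lowest and the highest of the values. The means were 1.87 ± 0.69 and 1.77 ± 0.25 (SD, n = 2), and the difference was 0.10 with an interval from -0.96 to 1.16. Its pooled SD of 0.52 was the widest of the members, and 16.1% of all genes had a larger one. The sign rested on single arrays, since the difference was 0.59 without testosterone replicate 1, -0.39 without testosterone replicate 2 and -0.08 without control replicate 1.

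Crabp1, the other cellular binding protein of retinoic acid, read -7.16 and -5.43 with testosterone and -7.72 and -7.43 in control. Testosterone replicate 2 alone was well above background, and both testosterone arrays lay above both controls. The testosterone mean of -6.29 ± 1.22 (SD, n = 2) lay below the lowest signals well above background, so no fold is given. The probe's ends lie on chromosome 8 at 58320823 and 58325131, a span of 4309 bases for a probe of 60. Crabp1 did not enter the test, which asked for both arrays of a group.

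The receptor genes were measured on all 4 arrays, with differences from -0.26 to -0.06. Rara, the retinoic acid receptor alpha, was read by a probe on chromosome 10 between 87749901 and 87750101. Levels of -1.65 and -1.91 with testosterone stood beside -1.69 and -1.76 in control, so the controls lay between the testosterone arrays. The means were -1.78 ± 0.18 and -1.72 ± 0.05 (SD, n = 2), which gave a difference of -0.06 (-0.59 to 0.48). Leaving out testosterone replicate 2 turned it to 0.07. Rxra, the partner that RAR needs to bind DNA, read -2.20 and -2.00 with testosterone and -2.05 and -1.82 in control (chromosome 3, 6689685 to 6689744). Testosterone replicate 2 lay above control replicate 1, so the groups overlapped by a narrow margin. The means were -2.10 ± 0.14 and -1.94 ± 0.16 (SD, n = 2), a difference of -0.16 (-0.71 to 0.39).

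Rarb, the receptor gene with the repeat printed above, was the member among the 7 tested whose groups did not overlap. Its brighter probe (chromosome 15_random, 324128 to 324187) read -4.82 and -4.79 with testosterone and -4.53 and -4.57 in control. Both testosterone arrays were below both control arrays, which held for 1 of the 7 members tested and for 9.41% of all genes. Of these 7, 0 lay apart the other way (5.91% of all genes). The means were -4.80 ± 0.02 and -4.55 ± 0.03 (SD, n = 2), a difference of -0.26 with an interval from -0.74 to 0.23, or 0.838-fold (0.600 to 1.17).

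Rarb did not pass the test, with an adjusted p of 1.00 in limma. Its pooled SD of 0.02 was small beside other genes, since 99.0% had a larger one, and limma widened it with the spread of all genes. A larger difference was found for 17.5% of all genes. Of 9 alternatives with all 4 arrays, 6 leave the Rarb value as it is by construction. Under the other 3 the groups stayed apart, at -0.32 with scaling to the median and -0.26 in the authors' deposited table, but at -0.06 with normexp background correction and quantile normalization. The level lay near the lowest signals well above background, and the other Rarb probe (319377 to 319436, 4751 bases away) was well above background on none of the arrays. It read -7.75 and -6.16 with testosterone and -6.64 and -6.42 in control, and its groups overlapped.

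**Figure D3:**
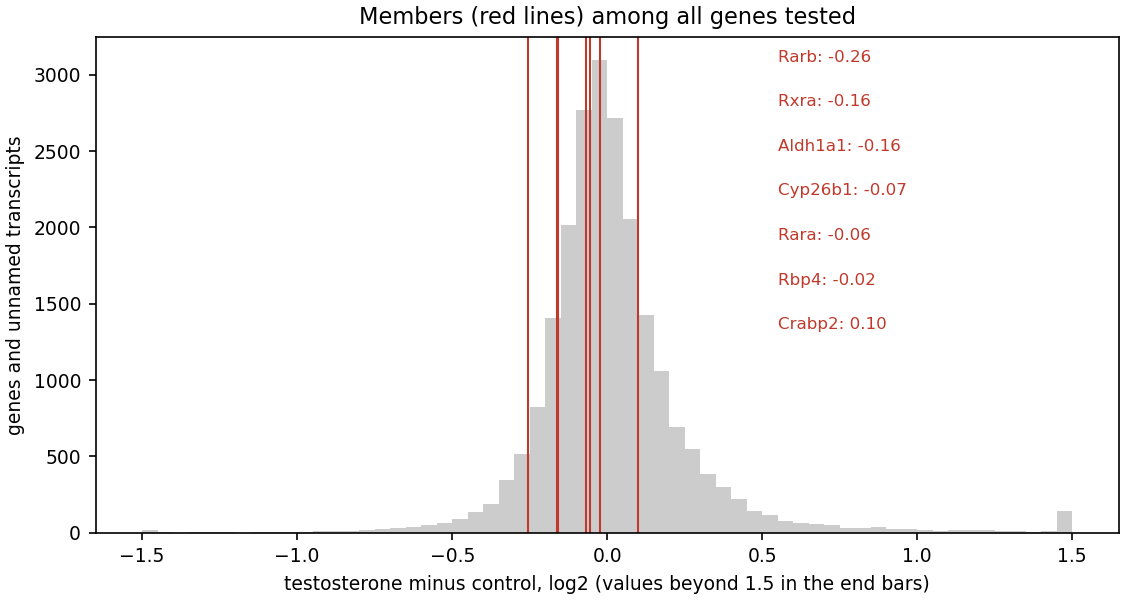
Number of genes and unnamed transcripts by testosterone minus control difference (log2), for the 22048 tested, with the 7 members as red lines and their values printed at the right. The members lie between -0.26 (Rarb) and 0.10 (Crabp2), within the bulk of all genes.

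The other receptors and the coregulators were well above background on all 4 arrays for 13 of 13 genes, and 0 were called. Differences were positive for 4 and negative for 9, beside 53.1% negative among all genes. Rxrg read 0.40 and 0.37 with testosterone and 0.63 and 0.71 in control, a difference of -0.28 (-0.77 to 0.20) with groups apart. Its other probe read -2.95 and -3.25 with testosterone and -2.86 and -2.80 in control, also apart in that direction. Rxrb differed by -0.22 (-0.96 to 0.53), and Rarg, named through the description in the file, by 0.22 (-0.83 to 1.26). Ncoa2, a coactivator of nuclear receptors, was the gene of this list with both testosterone arrays above both controls, at 0.20 (-0.28 to 0.68).

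Cyp26b1, which breaks down retinoic acid, was measured by a probe on chromosome 4, 118735314 to 118735373 on the minus strand. It read -0.16 and -0.43 with testosterone and -0.34 and -0.11 in control. The testosterone arrays held the lowest value and control replicate 2 the highest, with overlap. The means were -0.29 ± 0.19 and -0.23 ± 0.16 (SD, n = 2), and the difference was -0.07 (-0.65 to 0.51), or 0.953-fold (0.639 to 1.42). It was 0.07 without testosterone replicate 2 and 0.05 without control replicate 2. Cyp26a1, the related enzyme with the repeat in its promoter, read -5.19 and -4.59 with testosterone and -5.00 and -4.66 in control, and differed by -0.06 (-0.84 to 0.72). No probe was named Cyp26c1 or Aldh8a1, so of 5 further retinal dehydrogenase and Cyp26 genes 3 were measured. Their differences were positive for 0 and negative for 3, beside 53.1% negative among all genes.

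**Figure D4:**
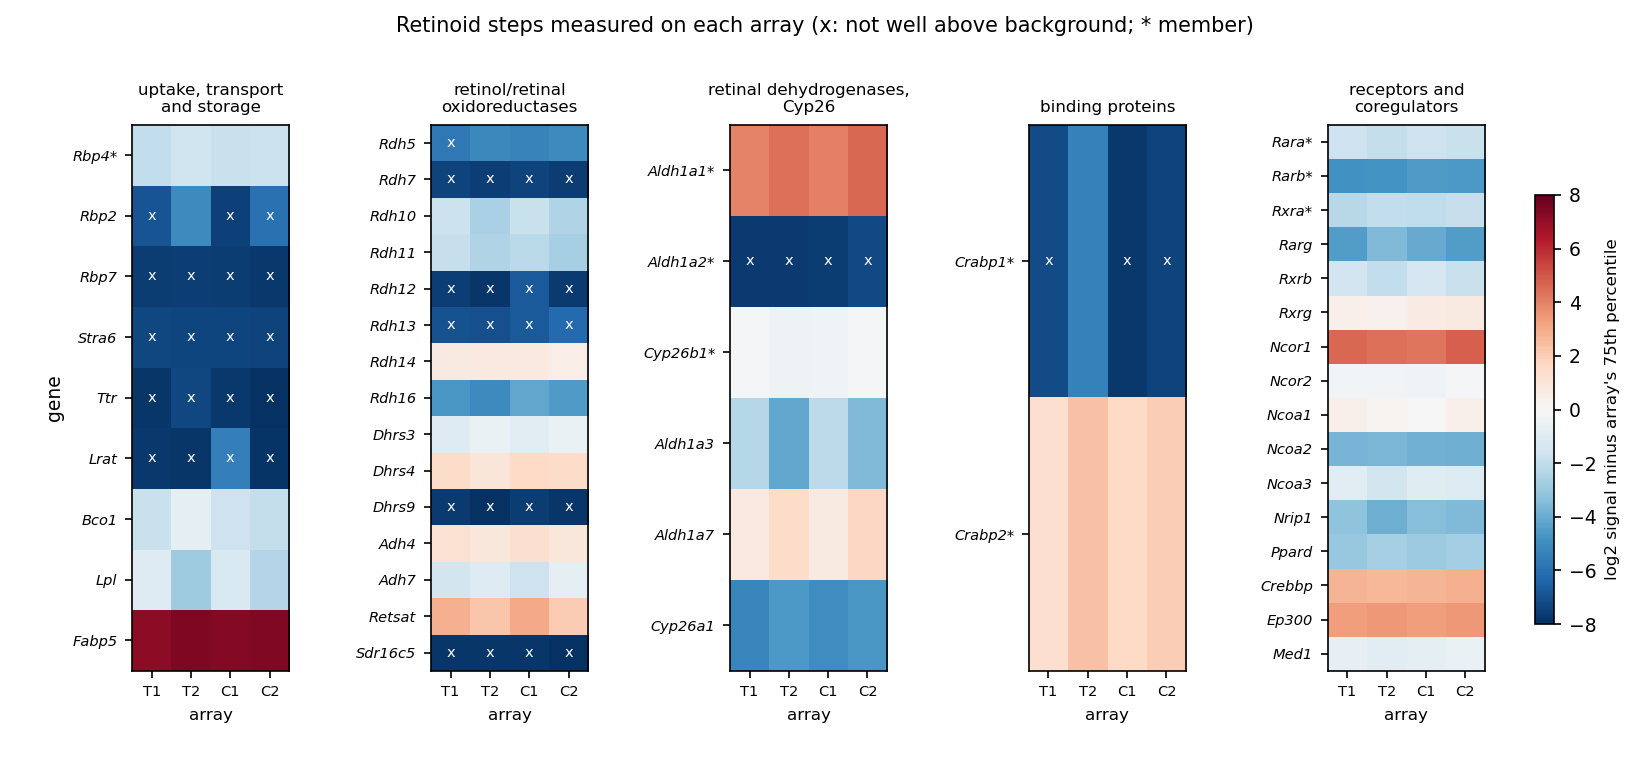
Levels of the members (starred) and of the pathway lists on testosterone (T1, T2) and control (C1, C2) arrays, 1 row per gene with its brightest probe, coloured by log2 processed signal minus the array's 75th percentile, with x where a probe was not well above background. Colours are to be read along a row, and the row of Aldh1a3 differs more between replicate numbers than between groups.

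Over the 45 pathway genes beside the members, 39 had a probe, 28 were well above background on all 4 arrays and 9 on none. Of 29 tested, 0 were called. Without Fabp5, 7 had a positive and 21 a negative difference, where 53.1% of all genes had a negative one. The median was -0.05 against -0.01 for all genes. The groups lay apart with testosterone higher for 1 of these 28 (3.57%) and with testosterone lower for 3 (10.7%), beside 5.91% and 9.41% of all genes.

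Further genes known to respond to retinoic acid were listed too. Of 25 such genes, 4 of which are also in the pathway lists, 20 had a probe, 11 were well above background on all 4 arrays and 8 on none. Of 12 tested, 4 had a positive and 8 a negative difference, where 53.1% of all genes had a negative one. The median was -0.06, and 0 were called or had an unadjusted p under 0.05 in limma. Hoxa4, a homeobox gene, read -4.32 and -3.88 with testosterone and -3.87 and -3.50 in control, a difference of -0.41 (-1.11 to 0.29). Hoxa5 differed by -0.19 (-0.70 to 0.31), and Rai14, a gene first described as induced by retinoic acid, by 0.19 (-0.40 to 0.77). By the probe tested, both testosterone arrays lay below both controls for Hoxa4, Hoxa5 and Lamb1. That is 3 of 12 beside 9.41% of all genes, and 0 of 12 lay apart the other way (5.91%). The other Hoxa5 probe read -4.61 and -4.52 with testosterone and -4.67 and -4.35 in control, with overlap. For Lamb1 the margin was narrow, with testosterone replicate 2 at 3.3224 and control replicate 2 at 3.3239. Its probe lay in column 75, within the columns where control replicate 1 had dropped probes. Rarres1, at 0.25 (-0.58 to 1.08), was well above background on 3 arrays. No probe was named Stra8, the germ cell gene that retinoic acid induces before meiosis.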

How the data were processed

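RNA of 4 samples was profiled on one-colour Agilent 4x44k rat arrays with Cy3-labelled copies primed by oligo-dT, per the labels' protocols. The deposited scanner files hold the processed signal of each spot as an intensity on a linear scale, with flags, and per the file headers were written by Feature Extraction 11.5.1.1 with positions in rn4. Version 10.5 stands in the submitters' processing notes. The deposited table of the series holds the authors' log2 values. For nearly all of 40749 probes compared, these equalled log2 processed signal minus a constant per array of 8.38 to 8.79, with no centring of genes and no turned sign. The few probes with the largest deviations were not examined. Column medians of the deposited table were -3.61 and -3.34 for testosterone replicates 1 and 2, and -3.62 and -3.45 for control.

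From the scanner files, log2 processed signal minus each array's 75th percentile was taken, spots of a probe were averaged, and probes were kept where both arrays of either group were well above background, with the brightest for each gene. The test was limma's (3.58.1, in R 4.3.3; lmFit, eBayes, 2-sided, Benjamini-Hochberg over 22048 genes and unnamed transcripts). The code was tested on simulated data. Probes were named by symbol (12313), accession (3586), older symbol (3464) or description (114) through RefSeq gene tables of GRCr8, and 21414 kept the name in the file. Another 121 were left unnamed since the gene of that symbol lies on another chromosome. Older symbols that are current symbols of another gene were not used, which keeps Aldh2 out of the members. No annotation of rn4 was used here, so exons and UTRs under the probes are not given. The number of arrays limits the precision.

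Groups and replicate numbers came from the sample titles. Members and lists were chosen with earlier results of these data known. The named genes are every member, up to 4 genes of a list with the largest differences among those well above background on all 4 arrays, and the nearest family members. An item of the lists is not reported here, and the list counts leave it out. Rarres1, Lamb1, Ttr, Stra8 and the cell type markers given by name were chosen after their values were seen. The 13 alternatives tried are in the closing section.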

Additional observations from a re-analysis of the deposited data

How the results depend on the processing

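Of 13 alternatives, 9 kept all 4 arrays, and under those 0 members, pathway genes or responsive genes were called. The differences of the 7 members tested kept their sign under each of the 9 that gave a value. Most of the 9 leave a member's difference as it is by construction. Scaling to the median shifts all genes by a constant, and the authors' table nearly all. Only normexp with quantile normalization could change the members separately. The number of members well above background on all 4 arrays stayed at 7 under other detection rules. Members with testosterone below control on every array numbered 2 with normexp and quantile normalization, 2 with scaling to the median (Rarb and Rxra in both) and 2 without a detection filter (Rarb and Aldh1a2), which also gave 1 member above control (Crabp1). Over all genes the shares below were 10.9%, 12.3% and 8.18% in these 3 settings, and 9.93% above without the filter. Leaving out 1 array gave 1 to 5 of 7 members below, where 23.9% to 41.4% of all genes lay, and 0 to 2 above (18.6% to 41%). Such fits moved Aldh1a1 between -0.45 and 0.13, Rbp4 between -0.19 and 0.15, Crabp2 between -0.39 and 0.59, Rara between -0.18 and 0.0708 and Cyp26b1 between -0.21 and 0.0678, so these 5 changed sign. Rarb stayed between -0.27 and -0.24 and Rxra between -0.28 and -0.05. Over all genes leaving out 1 array gave 0 to 35 calls higher, the 35 without control replicate 2, where the lone control array is replicate 1 and is assumed to vary like the testosterone group, and 0 lower.

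A fit blocked on replicate number called 0 genes, with 591 against 179 at an unadjusted p under 0.05. Its smallest adjusted p in limma was 0.733, and 0 members had an unadjusted p under 0.05. Deviations of same-numbered arrays correlated at 0.589 over 24489 probes, but 2 pairs and no label tie the numbers to shared cultures. Without columns 57 to 85, 15430 genes and 6 members were tested, and Aldh1a1 had no value. All arrays were on 1 slide, so no batch of slides was fitted. Whether the replicate numbers mark a batch of cultures is not stated. Signals near background limit what can be read of Aldh1a2, Crabp1 and the dim Rarb probe.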
